A study of Homo sapiens with 12 samples.

Results

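The quantity described here is the change, between 24 and 48 h, of the effect of a low dose of Kbr on gene expression in HK-2 cells. It was formed for each gene within each biological replicate number as the treated minus control difference at 48 h less the treated minus control difference at 24 h, on the log2 scale, and is called D. All 12 of the 12 arrays of the series enter it, so that each gene has 3 values of D, and 10665 of the 19775 gene symbols on the array were tested. Each gene was represented by the probe set with the highest mean over the 12 arrays. By its construction D is also the change of the treated cells from 24 to 48 h less the change of the control cells over the same time, and this second reading was used to tell genes that moved in the treated cells from genes that moved in the controls.

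HK-2 is an immortalised line of human renal proximal tubular epithelium, and all arrays are from this 1 line. The 4 groups were control cells at 24 h, cells given low dose Kbr at 24 h, control cells at 48 h and cells given low dose Kbr at 48 h, with 3 arrays in each, labelled as biological replicates 1 to 3. Controls received the vehicle. All cells were plated on the previous day, were close to confluent when treatment began, and grew in a DMEM and Ham's F12 mixture with EGF, hydrocortisone, insulin, transferrin and selenite. No source used here gives the full name of Kbr, its concentration or the vehicle. The study as a whole looked for toxicity signatures among nephrotoxic compounds, and these arrays cover the low dose of Kbr.

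As background, a nearly confluent epithelial culture goes on changing without any treatment. Its cells leave the cell cycle, deposit basement membrane and take on or lose features of the tubule, so the control is itself a moving reference. Among stress programmes, the unfolded protein response raises chaperones of the endoplasmic reticulum, the integrated stress response raises amino acid synthesis genes through ATF4, and the NRF2 response raises enzymes that detoxify quinones and make glutathione. These programmes can start at different times after an insult.

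Values are log2 signal after GCRMA, and a gene was tested when it exceeded a log2 value of 4 in at least 3 of the 12 arrays. Array medians lay between 2.91 and 2.99, and arrays of 1 group correlated at 0.982 to 0.993 across genes. Treated replicate 3 at 48 h stood apart: it correlated at 0.982 with replicate 1 and at 0.987 with replicate 2 of its group, which correlated at 0.990 with each other. The size of D was also smallest in replicate 3, where 298 genes had an absolute D over 1, against 659 in replicate 1 and 506 in replicate 2. The 3′ minus 5′ signal of the ACTB control probe sets, a measure of RNA quality, had a D of 0.04, 0.05 and 0.01 in replicates 1 to 3. Results that rest on treated replicate 3 at 48 h are therefore given with and without that array. It was singled out partly by the size of D. Calls and adjusted p-values without it can favour genes whose D was smaller in replicate 3, and are descriptions. Of 12 proximal tubule markers, SLC3A1 and CDH6 were tested and the other 10, among them LRP2, CUBN and AQP1, were below the floor on all arrays. All 6 collecting duct, all 5 endothelial and all 5 leukocyte markers were below the floor on every array. Of 5 loop of Henle and distal tubule markers CLDN16 was tested, with group means of 8.99 to 9.70. Of 4 podocyte markers PODXL and SYNPO were tested, with group means of 5.08 to 5.47 and 4.72 to 6.02. Of 6 fibroblast markers DCN, LUM and COL1A1 were tested, while PDGFRB, PDGFRA and COL3A1 were below the floor on all arrays. The linear signal of the fibroblast list was summed on each array and put on the log2 scale, where its brightest member, DCN, weighs most. This sum was 12.5 to 13.0 in controls and 11.8 to 12.3 in treated cells at 24 h. At 48 h it was 12.4 to 12.5 in controls and 10.6 to 11.1 in treated cells, and its part in the results was not tested. In bulk RNA, fewer cells of a type and less RNA per cell cannot be told apart.

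The effect of Kbr grew between the times more often than it shrank. The median absolute treated minus control difference over all genes was 0.221, 0.204 and 0.178 at 24 h and 0.420, 0.364 and 0.309 at 48 h in replicates 1, 2 and 3. By limma without a replicate block, 15 genes passed an adjusted p of 0.05 for D, which is 0.141% of the genes tested. Of these, 7 had a positive D (0.0656% of genes tested) and 8 a negative D (0.075%), while 1715 genes (16.1%) had an unadjusted p under 0.05. Of the 1715, 977 had a positive D and 738 a negative D. When the replicate number was entered as a block, 785 genes passed (7.36%), 364 with a positive D (3.41%) and 421 with a negative D (3.95%), and they included all 15. A test of the 3 paired differences alone passed 370 genes with another balance, 126 positive and 244 negative, and subtracting each array's median left 8 genes without the block, 2 positive and 6 negative. Arrays with the same replicate number deviated together in every pair of groups, so the blocked values are given beside the others throughout. A positive D does not always mean induction: it can be a rising gene, a gene whose repression lessened, or a gene that fell in the controls only. In counts of calls, upward means a positive D and downward a negative D, whichever arm moved. In all 15 genes the effect had the same sign at both times and was larger at 48 h. That also held for 706 of the 785 genes of the blocked fit (89.9%), beside 64.7% of all genes tested. The sign of the effect differed between the times in 76 of the 785 (9.68%, against 19.3% of all genes), and a smaller effect of the same sign at 48 h was seen in 3 of them (0.382%, against 16.1%). Because D chose these genes, the shares are descriptions.

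A single array held much of the spread. Without treated replicate 3 at 48 h, limma without a block passed 479 genes (4.49%), 315 upward (2.95%) and 164 downward (1.54%), and with the block 2499 genes (23.4%), of which 1380 were upward (12.9%) and 1119 downward (10.5%). All 15 and all 785 genes were among them. The counts fell in most other leave-out fits: without 24 h control replicate 3 there were 0 calls without the block (1246 genes at an unadjusted p under 0.05) and 95 with it, and without treated replicate 2 at 48 h there were 0 (1369 unadjusted) and 132. When replicate 1 or replicate 2 was left out of all 4 groups, no gene passed in either limma fit (986 and 758 unadjusted without the block, 1982 and 1430 with it). Leaving out replicate 3 from all groups gave 27 calls (0.253%) without the block, of which 3 were among the 15, and 805 (7.55%) with it, of which 419 were among the 785. The list of called genes therefore depends on which arrays are used, while the values of D for each gene are those printed below.

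The genes past the test were sorted by which arm moved. A gene was called a late response when the treated cells changed between the times (limma, adjusted p under 0.05) and the control change was at most 1/3 of D. It was called a control-side change when the controls changed between the times by the same test and the treated change was at most 1/3 of D. Among all genes tested, 1135 passed for the treated time change (10.6%) and 351 for the control time change (3.29%), or 3273 (30.7%) and 2404 (22.5%) with the block. Of the 15 genes, 5 were late responses, 3 were control-side changes, 2 moved in opposite directions in the 2 arms and 5 met none of these definitions. Of the 785, 295 were late responses (37.6%) and 188 control-side changes (23.9%). A further 77 moved in opposite directions (9.81%), 44 moved the same way in both arms (5.61%) and 181 were none of these (23.1%). The 133 upward late responses had a median treated time change of 0.61, and a median Kbr effect of 0.23 at 24 h and 0.91 at 48 h. The 162 downward late responses had medians of -0.69, -0.42 and -1.14 for the same quantities.

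**Figure D1:**
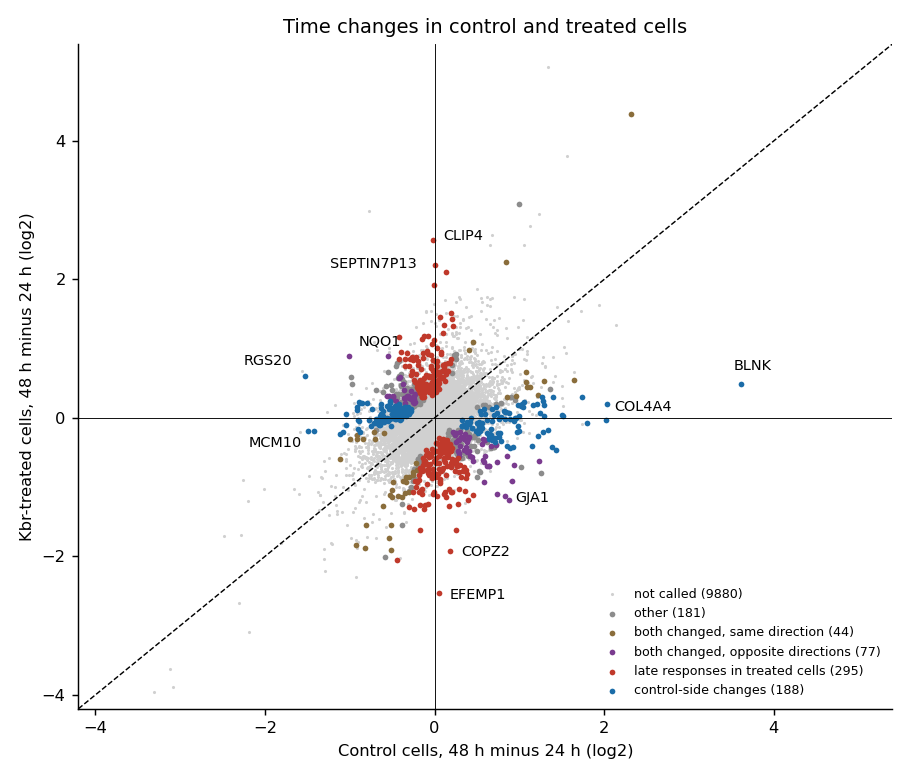
Each point is 1 of 10665 genes, placed by the log2 change of the control cells from 24 to 48 h (horizontal axis) and that of the treated cells (vertical axis), each a difference of means of 3 arrays, with colour giving the class in the limma fit with the replicate block. Genes on the dashed line changed equally in both arms, the 295 late responses lie away from the line along the vertical axis and the 188 control-side changes along the horizontal axis.

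Late losses in the treated cells were led by EFEMP1, which encodes fibulin-3, a secreted glycoprotein of the extracellular matrix. EFEMP1 read 8.52, 8.39 and 8.39 in the 24 h controls, 6.86, 6.51 and 7.37 in treated cells at 24 h, 8.44, 8.64 and 8.37 in the 48 h controls and 4.17, 4.38 and 4.59 in treated cells at 48 h. The 6 control arrays lay together, every treated array was below them, and the treated arrays at 48 h were all below those at 24 h. The effect was -1.52 at 24 h and -4.11 at 48 h, so that D was -2.58 ± 0.19 (SD, n = 3; limma adjusted p = 0.0129, or 0.00942 with the replicate block). The treated cells fell by 2.53 between the times (limma adjusted p = 0.000286), while the controls changed by 0.05. A second EFEMP1 probe set with a mean level of 3.50 gave a D of 0.19, so the call rests on the brighter probe set.

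COPZ2, a zeta subunit of the coatomer that coats transport vesicles of the Golgi, behaved alike. Its values were 8.33, 8.28 and 7.87 in the 24 h controls, 7.35, 7.36 and 7.25 in treated cells at 24 h, 8.51, 8.28 and 8.23 in the 48 h controls and 5.94, 4.99 and 5.27 in treated cells at 48 h. The treated arrays at the 2 times did not overlap, and neither overlapped with the controls. D was -2.10 ± 0.44 (SD, n = 3; limma adjusted p = 0.0269, with the block 0.00942).

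SGK1, the serum and glucocorticoid regulated kinase that promotes sodium reabsorption in tubular epithelium, showed almost all of its loss after 24 h. SGK1 read 13.84, 13.79 and 13.68 in the 24 h controls, 13.61, 13.64 and 13.57 in treated cells at 24 h, 13.83, 13.93 and 13.65 in the 48 h controls and 12.25, 12.61 and 12.58 in treated cells at 48 h. The 3 treated arrays at 48 h were the only ones below 13. The effect was -0.16 at 24 h and -1.32 at 48 h, with a D of -1.16 ± 0.19 (SD, n = 3; limma adjusted p = 0.0269, with the block 0.0105). DNPH1, a hydrolase of the nucleotide salvage pathway, completed the downward late responses of the fit without a block, with a D of -0.85 ± 0.15 (SD, n = 3; adjusted p = 0.0436, with the block 0.0105) and effects of -0.48 and -1.33. Treated DNPH1 arrays at 48 h lay at 8.25 or lower, below the 8.65 to 8.75 of treated cells at 24 h and the 9.13 to 9.49 of all controls.

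Further downward late responses passed with the block only. CTSO, a lysosomal cysteine protease, read 6.41, 6.14 and 6.13 in treated cells at 24 h and 4.81, 4.98 and 4.05 at 48 h, with a control mean of 6.78 and 7.04 at the 2 times (D -1.87 ± 0.73, limma adjusted p = 0.0651, with the block 0.0105). SCEL, a precursor of the cornified envelope, had effects of -2.20 at 24 h and -3.81 at 48 h (D -1.61 ± 0.69, limma adjusted p = 0.203, with the block 0.0167). AGT, which encodes angiotensinogen, the substrate of renin, had a D of -1.56 ± 0.36 (limma adjusted p = 0.0674, with the block 0.0134) and went from an effect of -0.37 to -1.93. SLITRK5, a transmembrane protein of the SLITRK family, and TP53INP1, a p53-inducible nuclear protein, had a D of -1.59 and -1.20 (limma adjusted p with the block 0.0142 and 0.0387, without it 0.0891 and 0.103).

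Late gains in the treated cells had 1 call without the block, SEPTIN7P13, a pseudogene of the cytoskeletal gene SEPTIN7. It read 2.76, 2.90 and 3.24 in the 24 h controls, 3.07, 2.91 and 3.19 in treated cells at 24 h, 3.11, 3.16 and 2.64 in the 48 h controls and 5.07, 5.74 and 5.00 in treated cells at 48 h. The treated 48 h arrays were alone above the floor (D 2.21 ± 0.49, SD, n = 3; limma adjusted p = 0.0269, with the block 0.0118). Its copies share sequence, so the probe set's target is uncertain, and the size of a change for any gene with a group near or below log2 4 depends on the GCRMA background.

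CLIP4, a member of the CAP-Gly family of microtubule-associated proteins, had the largest positive D of the genes past the blocked test. CLIP4 read 2.57, 2.83 and 2.78 in the 24 h controls, 4.04, 2.90 and 2.88 in treated cells at 24 h, 2.60, 2.67 and 2.87 in the 48 h controls and 6.53, 5.84 and 5.17 in treated cells at 48 h. It was above the floor on the 3 treated 48 h arrays and on 1 treated 24 h array (D 2.59 ± 0.46, SD, n = 3; limma adjusted p = 0.0744, with the block 0.0186).

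SESN2 differed from these in that its effect changed sign. This gene encodes sestrin 2, a stress-induced inhibitor of mTORC1 signalling. SESN2 read 8.37, 8.18 and 8.17 in the 24 h controls, 7.45, 7.41 and 7.69 in treated cells at 24 h, 8.98, 8.05 and 8.09 in the 48 h controls and 10.22, 9.90 and 8.75 in treated cells at 48 h. Treated arrays were below all controls at 24 h, and at 48 h 2 of the 3 were above all controls while replicate 3 at 8.75 lay below control replicate 1. The effect went from -0.72 to 1.25 (D 1.97 ± 0.76, SD, n = 3; limma adjusted p = 0.121, with the block 0.0323).

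Of the other upward late responses of the blocked fit, UPP1, a uridine phosphorylase, went from an effect of 0.79 to 2.39 (D 1.59 ± 0.68, limma adjusted p = 0.125, with the block 0.0352). DUSP5, a nuclear phosphatase of ERK, went from 0.85 to 2.20 (D 1.35 ± 0.40, limma adjusted p = 0.103, with the block 0.0118). GADD45A, a growth arrest gene of the DNA damage response, went from 0.37 to 1.69 (D 1.32 ± 0.60, limma adjusted p = 0.103, with the block 0.0304). PRELID3A, of the PRELI family of mitochondrial lipid transfer proteins, and ZNF582-DT, a divergent transcript of ZNF582, started below the floor in the controls and had a D of 1.93 and 1.39 (limma adjusted p with the block 0.0144 and 0.021, without it 0.0651 and 0.103).

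**Figure D2:**
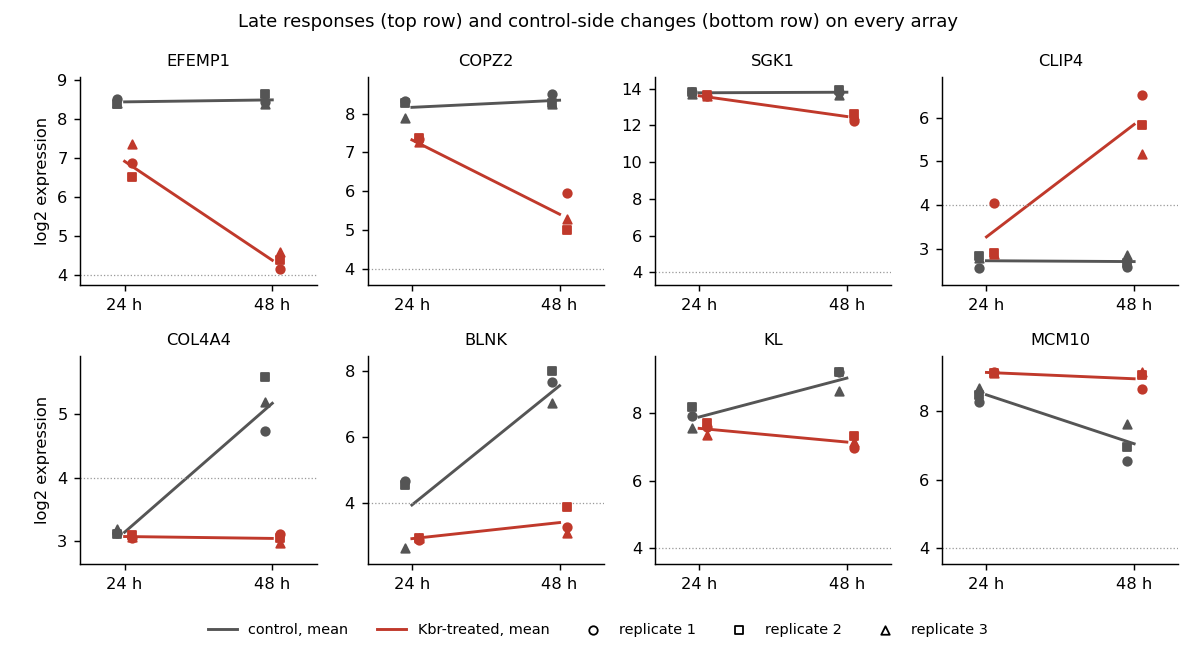
Log2 signal of 8 genes on all 12 arrays, with 24 h and 48 h along the horizontal axis and 1 point per array. Colour tells control from treated cells, lines join their means, and a dotted line marks log2 4. EFEMP1, COPZ2 and SGK1 are lowest and CLIP4 highest in treated cells at 48 h, whereas COL4A4, BLNK and KL are highest, and MCM10 lowest, in the 48 h controls.

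Control-side changes were of both kinds. With the block, 95 genes rose in the controls and not to a comparable degree in treated cells, with a median control rise of 0.76 and a median effect of -1.29 at 48 h, and 93 fell in the controls, with a median control change of -0.52 and a median effect of 0.90 at 48 h. For these genes the effect at 48 h came with a moving control, and the level in treated cells changed by at most 1/3 of D. Without the block the 3 control-side changes were COL4A4, MUC1 and PPP1R1A, all of them control risers.

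COL4A4 encodes a type IV collagen chain of specialised basement membranes. It read 3.13, 3.12 and 3.19 in the 24 h controls, 3.06, 3.09 and 3.08 in treated cells at 24 h, 4.73, 5.57 and 5.19 in the 48 h controls and 3.11, 3.05 and 2.98 in treated cells at 48 h. COL4A4 was above the floor on the 3 control arrays at 48 h alone, so the size of its rise depends on the background of the other 9. The controls rose by 2.02 (limma adjusted p = 0.000619), the treated cells changed by -0.03, and D was -2.05 ± 0.48 (SD, n = 3; limma adjusted p = 0.0166, with the block 0.00942). A second COL4A4 probe set, with a mean level of 3.13, gave a D of -1.96.

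MUC1, a transmembrane mucin of the apical membrane, was measured far above the floor. Its values were 9.83, 10.01 and 9.77 in the 24 h controls, 8.63, 9.00 and 8.79 in treated cells at 24 h, 10.70, 10.69 and 10.87 in the 48 h controls and 8.32, 8.39 and 8.42 in treated cells at 48 h. No groups overlapped. The controls rose by 0.89 and the treated cells changed by -0.43, which took the effect from -1.06 to -2.38 (D -1.32 ± 0.15, SD, n = 3; limma adjusted p = 0.0175, with the block 0.00942). PPP1R1A, an inhibitor of protein phosphatase 1, read 7.55, 7.07 and 7.39 in the 24 h controls, 6.95, 7.01 and 6.84 in treated cells at 24 h, 8.77, 8.56 and 8.70 in the 48 h controls and 6.61, 6.62 and 7.07 in treated cells at 48 h. The 48 h controls were alone above 8, and the treated arrays of the 2 times overlapped (D -1.51 ± 0.40, SD, n = 3; limma adjusted p = 0.0269, with the block 0.011).

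BLNK, an adaptor of antigen receptor signalling best known from B cells, had the largest negative D of all genes tested. BLNK read 4.66, 4.53 and 2.63 in the 24 h controls, 2.89, 2.94 and 2.93 in treated cells at 24 h, 7.65, 7.98 and 7.02 in the 48 h controls and 3.27, 3.88 and 3.08 in treated cells at 48 h. All 3 control arrays at 48 h stood clear of the rest, and the controls rose by 3.61. D was -3.12 ± 0.97 (SD, n = 3), with a limma adjusted p of 0.097 without the block and 0.0144 with it. The linear signal of the 5 leukocyte markers, summed and put on the log2 scale, was 4.75 to 4.84 over the 12 arrays. Each of the 5 was below the floor.

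Other control risers of the blocked fit included signalling and lipid mediator genes. ALOX5, the lipoxygenase that starts leukotriene synthesis, rose by 1.39 in the controls and changed by -0.41 in treated cells (D -1.80 ± 0.37, limma adjusted p = 0.0909, with the block 0.0124). IL1B, the cytokine interleukin-1 beta, read 5.24, 6.94 and 5.15 in the 48 h controls and between 3.77 and 4.73 on all other arrays, so its D of -1.88 ± 1.25 was uneven over replicates (limma adjusted p = 0.174, with the block 0.035). KISS1R, the kisspeptin receptor, and MOB3B, a MOB family kinase activator, had a D of -1.89 and -1.83 (limma adjusted p with the block 0.0244 and 0.035, without it 0.14 and 0.176).

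KL, HLF, DBP and PTGDS were singled out after their values were seen. KL encodes klotho, the co-receptor of FGF23 in the tubule, and read 7.92, 8.17 and 7.56 in the 24 h controls, 7.59, 7.72 and 7.35 in treated cells at 24 h, 9.22, 9.23 and 8.67 in the 48 h controls and 6.96, 7.32 and 7.15 in treated cells at 48 h. The 48 h controls were the 3 highest KL arrays and the treated 48 h arrays the 3 lowest (D -1.56 ± 0.32, SD, n = 3; limma adjusted p = 0.0651, with the block 0.00942). HLF and DBP, transcription factors of the PAR bZIP family with daily rhythms in many tissues, rose by 0.93 and 1.29 in the controls and changed by -0.42 and 0.19 in treated cells (limma adjusted p of D 0.0674 and 0.314, with the block 0.0151 and 0.0246). PTGDS, a prostaglandin D synthase, rose by 1.28 in the controls and changed by -0.20 in treated cells (limma adjusted p of D 0.141, with the block 0.0142).

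Genes that fell in the controls included several of DNA replication and repair. MCM10, which loads replication factors at origins, read 8.26, 8.48 and 8.68 in the 24 h controls, 9.15, 9.11 and 9.12 in treated cells at 24 h, 6.56, 6.95 and 7.63 in the 48 h controls and 8.64, 9.05 and 9.14 in treated cells at 48 h. The 48 h controls were the lowest arrays, and the treated arrays of the 2 times overlapped. The controls changed by -1.43 and the treated cells by -0.18 (D 1.24 ± 0.21, SD, n = 3; limma adjusted p = 0.14, with the block 0.0234). DDIAS, a suppressor of apoptosis after DNA damage, and RAD54B, a homologous recombination ATPase, changed by -1.50 and -0.88 in the controls and by -0.19 and 0.22 in treated cells (limma adjusted p of D with the block 0.0373 and 0.0408, without it 0.207 and 0.154). RGS20, a regulator of G protein signalling, had the largest D of the control fallers, 2.14 ± 1.04, with 3.16, 2.19 and 1.07 in replicates 1 to 3 (limma adjusted p = 0.21, with the block 0.0463). IGF2BP1, an mRNA-binding protein of growing cells, and GPRC5A, an orphan G protein-coupled receptor, had a D of 1.11 and 1.12 (limma adjusted p with the block 0.0225 and 0.021, without it 0.265 and 0.417). Other probe sets gave smaller values, 0.24 for IGF2BP1, 0.64 for GPRC5A, and 0.77 and 0.73 for MCM10.

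Over the list of 24 tested DNA replication genes, the median change was -0.41 in the controls and -0.22 in treated cells, and the median D was 0.11, beside 0.01 over all genes tested. By limma, 0 passed without the block (4 at an unadjusted p under 0.05, all upward). With it 4 passed upward, beside 3.41% of all genes, and they were CDC6, CDC45, RFC3 and RFC4. CDC45, part of the replicative helicase, and RFC3, a clamp loader subunit, were control fallers with a D of 0.75 and 0.76. RFC4, another clamp loader subunit, had a D of 0.57. The 25 mitosis genes had a median change of -0.64 in controls and -0.43 in treated cells, and 24 of 25 had a positive D, beside 5535 of all 10665 genes. None passed limma without the block (1 unadjusted upward and 1 downward). With the block the kinesin KIF20A passed downward, with a D of -0.44, and 0 passed upward. MKI67, the proliferation antigen, had a D of 0.21 that did not pass in either fit, with 0.15, -0.13 and -0.17 from its other probe sets. Without treated replicate 3 at 48 h, the blocked fit passed 5 mitosis genes upward and 1 downward, beside 12.9% and 10.5% of all genes.

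Genes that moved in opposite directions in the 2 arms gained effect from both sides. CDC6, which licenses replication origins, had the largest positive D among them. CDC6 read 9.29, 9.36 and 9.62 in the 24 h controls, 9.67, 9.87 and 9.94 in treated cells at 24 h, 8.07, 8.39 and 8.78 in the 48 h controls and 11.18, 10.90 and 10.08 in treated cells at 48 h. The 48 h controls were lowest and the treated 48 h arrays highest, without overlap with any other group (D 1.90 ± 0.88, SD, n = 3; limma adjusted p = 0.0753, with the block 0.0298).

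GJA1, which encodes the main gap junction connexin of many cells, moved the other way. It read 10.88, 11.16 and 11.57 in the 24 h controls, 10.16, 10.15 and 11.001 in treated cells at 24 h, 11.74, 12.18 and 12.18 in the 48 h controls and 8.83, 9.24 and 9.84 in treated cells at 48 h. The controls rose by 0.83 and the treated cells fell by 1.13, and the treated 48 h arrays lay below all others (D -1.96 ± 0.21, SD, n = 3; limma adjusted p = 0.1, with the block 0.00942). CFB, complement factor B of the alternative pathway, rose by 1.23 in controls and changed by -0.62 in treated cells (D -1.85 ± 0.22, limma adjusted p = 0.0753, with the block 0.0144). FXYD6, a regulator of the sodium pump, changed by 0.88 and -1.18 (D -2.06 ± 0.11, limma adjusted p = 0.0674, with the block 0.011). IFI44L, an interferon-induced gene, had a D of -1.82 ± 0.29 whose call came with the block alone (limma adjusted p = 0.0178, without it 0.368). TMEM255A and CCDC198 had a D of -1.83 and -1.62 (limma adjusted p with the block 0.0178 and 0.0151, without it 0.17 and 0.103), and the other CCDC198 probe sets gave -1.39 and -0.46.

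The opposite and unclassified genes among the 15 were NQO1, EXOG, SCARNA15, TBC1D31, SLF1, CEP43 and ILDR2. ILDR2, a protein of tricellular contacts, read 6.52, 6.50 and 6.44 in the 48 h controls and 4.19, 4.05 and 4.46 in treated cells at 48 h, with 24 h values of 5.51 to 5.74 in controls and 4.54 to 5.03 in treated cells. No groups of ILDR2 arrays overlapped (D -1.40 ± 0.26, SD, n = 3; limma adjusted p = 0.0269, with the block 0.0111). SLF1, which recruits the SMC5 and SMC6 complex to damaged DNA, had effects of 0.03 at 24 h and 0.83 at 48 h, with a D of 0.81 ± 0.11 (SD, n = 3; limma adjusted p = 0.0436, with the block 0.0116). EXOG, a mitochondrial nuclease, SCARNA15, a small Cajal body RNA, TBC1D31, a centriolar satellite protein, and CEP43, a centrosomal protein, had a D of 0.99, 0.88, 0.85 and 0.71 (limma adjusted p 0.0472, 0.0449, 0.0472 and 0.0472). In these 4 genes the controls changed by -0.40, -0.56, -0.53 and -0.46 and the treated cells by 0.59, 0.32, 0.31 and 0.25. Of the other CEP43 probe sets above the floor, 1 gave a D of 0.73 and 1 a D of -0.08. The other probe set of EXOG gave a D of 0.44, and that of SLF1, with a mean level of 4.67, a D of 0.05.

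**Figure D3:**
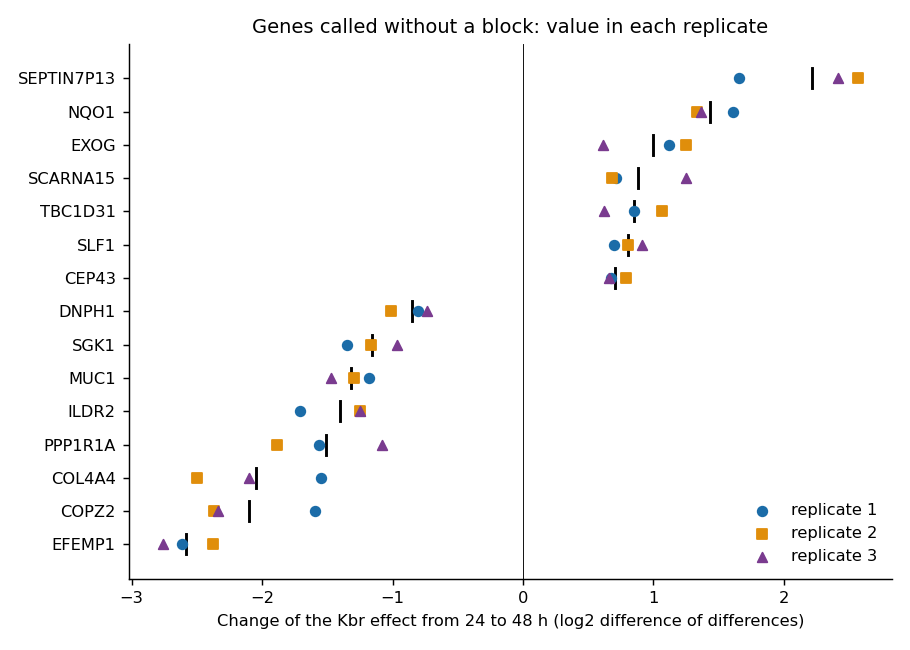
D in log2 units for the 15 genes past the limma test without a block, with 1 point for each of the 3 biological replicates and a bar at their mean. All 3 replicates share 1 sign in each gene, from -2.58 on average in EFEMP1 to 2.21 in SEPTIN7P13.

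The effect on NRF2 targets grew evenly over the replicates. Of 22 tested members 20 had a positive D and 18 were positive in all 3 replicates, beside 5535 and 3186 of all 10665 genes, and 6006 genes (56.3%) had 1 sign in all 3. The median D was 0.50, with 0.46, 0.32 and 0.50 in replicates 1 to 3. By limma, 1 member passed without the block and 8 with it, all upward. Of all genes, 3.41% passed upward with the block. Earlier results of these data were known when the list was chosen, so its count is not independent evidence of its direction.

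NQO1, a quinone reductase and standard NRF2 target, was the member past both fits. NQO1 read 11.28, 11.35 and 11.22 in the 24 h controls, 12.66, 12.80 and 12.27 in treated cells at 24 h, 10.59, 10.74 and 10.88 in the 48 h controls and 13.58, 13.52 and 13.29 in treated cells at 48 h. The groups did not overlap, and the order ran from 48 h controls over 24 h controls and treated 24 h to treated 48 h. The treated cells rose by 0.89 (limma adjusted p = 0.00597), the controls changed by -0.55 (limma adjusted p = 0.0611, with the block 0.0165), and D was 1.44 ± 0.15 (SD, n = 3; limma adjusted p = 0.0269, with the block 0.0105). Both other NQO1 probe sets above the floor also had a positive D, 1.54 and 1.11.

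Members of the pathway named here had a positive effect at 24 h that was larger at 48 h. TRIM16 and GCLM, the latter the modifier subunit of glutamate-cysteine ligase, which makes the first bond of glutathione, already had effects of 1.80 and 1.80 at 24 h, which became 2.66 and 2.54 at 48 h (D 0.86 and 0.73, limma adjusted p with the block 0.0334 and 0.0344, without it 0.103 and 0.213). TXNRD1, a thioredoxin reductase, went from 1.23 to 1.91 and was a late response (D 0.67 ± 0.16, limma adjusted p with the block 0.0186, without it 0.156). GCLC, the catalytic subunit of that ligase, and AKR1C1, an aldo-keto reductase, were singled out after their values were seen. GCLC went from 0.67 to 1.90 and AKR1C1 from 0.61 to 1.73, both late responses with the block (D 1.23 and 1.11, limma adjusted p with the block 0.0394 and 0.0459, without it 0.145 and 0.206). HMOX1, the heme oxygenase, had effects of 1.97 and 2.67, and its D of 0.70 did not pass in either fit (limma adjusted p = 0.28, with the block 0.0667).

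The 2 largest D values of all belonged to SDF2L1, of endoplasmic reticulum stress, and ATF3, of the integrated stress response, and the values of these programmes were uneven over replicates. All 19 of 19 endoplasmic reticulum chaperones and folding enzymes had a positive D, with a median of 0.97, and 11 were positive in all 3 replicates. The median was 1.86 in replicate 1, 0.87 in replicate 2 and 0.12 in replicate 3. In 18 of the 19 the value of replicate 3 was the smallest, beside 4700 of all 10665 genes. By limma 0 passed without the block (9 at an unadjusted p under 0.05, all upward) and 1 with it, the oxidoreductase ERO1A, with a D of 0.65. The other ERO1A probe sets, with mean levels of 7.98 and 9.59, gave a D of 0.11 and -0.11, so this call rests on 1 of 3 probe sets. Without treated replicate 3 at 48 h, 12 of the 19 passed upward without the block and 17 with it, against the 2.95% and 12.9% of all genes given above. These 2 counts are descriptions, because the array left out belongs to the replicate with the smallest value in 18 of the 19. With replicate 3 left out of all 4 groups, 3 of the 19 passed upward without the block and 10 with it. Of all 10665 genes, 19 and 449 passed upward in these fits. With replicate 1 or replicate 2 left out of all groups, 0 of the 19 passed in either fit.

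HSPA5 encodes BiP, the main chaperone of the endoplasmic reticulum lumen. HSPA5 read 12.97, 12.93 and 13.36 in the 24 h controls, 13.37, 13.29 and 13.39 in treated cells at 24 h, 13.11, 12.78 and 12.98 in the 48 h controls and 15.36, 15.03 and 13.78 in treated cells at 48 h. All treated 48 h arrays were above the other 9, with replicate 3 much nearer to them than replicates 1 and 2. D was 1.51 ± 0.63 (SD, n = 3; limma adjusted p = 0.165, with the block 0.0741), and without treated replicate 3 at 48 h it was 1.98 (limma adjusted p = 0.00332). That last p-value is a description, as the array was singled out partly by the size of D. HSPA5 passed in 2 of the 15 fits without the block that left out arrays.

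SDF2L1 and HERPUD1 were singled out after their values were seen. SDF2L1, a partner of BiP, had the largest D of all genes tested and read 6.61, 7.06 and 7.52 in the 24 h controls, 6.60, 6.90 and 7.28 in treated cells at 24 h, 6.04, 6.41 and 6.43 in the 48 h controls and 11.39, 10.45 and 7.92 in treated cells at 48 h. At 24 h the SDF2L1 groups overlapped, and at 48 h all treated arrays were above every other array. D was 5.36, 4.20 and 1.73 in the 3 replicates (mean 3.76 ± 1.85, SD; limma adjusted p = 0.127, with the block 0.0569, and 0.00309 with a D of 4.76 without treated replicate 3 at 48 h). HERPUD1, which helps degrade misfolded proteins of the endoplasmic reticulum, read 13.78, 13.69 and 11.65 in treated cells at 48 h against a 48 h control mean of 11.10 ± 0.22 (SD, n = 3), with a D of 1.97 (limma adjusted p = 0.177, without the array 2.66 and 0.000395). For both genes the values without the array are descriptions, as it was singled out partly by the size of D.

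As background, many genes of this programme carry a known promoter element, and the sequences of the list members that hold it are shown. The 250 bases before each transcript start in RefSeq (GRCh38.p14) were searched on both strands for the endoplasmic reticulum stress element in its strict form, a CCAAT box followed after 9 bases of any kind by CCACG, so that each match also holds the CCAAT box. It was found in 6 of the 17 chaperone promoters in the table (35.3%), in 1 of 11 promoters of the degradation and sensor list (9.09%), in 13 of 8852 promoters of genes tested (0.147%) and in 22 of 27305 promoters in all (0.0806%). Among classes of the blocked fit, the element was in 0 of 114 upward and 1 of 134 downward late response promoters. For control fallers it was in 0 of 77 promoters and for control risers in 0 of 75. The CCAAT box alone was in 14 of the 17 chaperone promoters (82.4%) and in 33.0% of all promoters. A match is a description of letters, and its part in the results was not tested. The matches are in capitals with up to 20 bases on either side, 5′ to 3′ on the gene's strand, and a capital run that begins with CGTGG is the element on the opposite strand.
HSPA5, chr9:125241371-125241429, minus strand: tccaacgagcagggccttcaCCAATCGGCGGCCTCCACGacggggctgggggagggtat
HSP90B1, chr12:103930196-103930254, plus strand: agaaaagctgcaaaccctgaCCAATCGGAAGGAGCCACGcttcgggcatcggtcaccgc
CALR, chr19:12938364-12938422, plus strand: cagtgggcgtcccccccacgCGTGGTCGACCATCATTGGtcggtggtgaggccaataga
CANX, chr5:179698758-179698816, plus strand: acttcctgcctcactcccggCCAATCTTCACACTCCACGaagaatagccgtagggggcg
CRELD2, chr22:49918534-49918592, plus strand: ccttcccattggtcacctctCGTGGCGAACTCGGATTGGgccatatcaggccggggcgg
ERO1B, chr1:236282163-236282208, minus strand: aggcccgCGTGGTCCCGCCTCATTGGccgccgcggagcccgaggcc
XBP1, chr22:28800583-28800641, minus strand: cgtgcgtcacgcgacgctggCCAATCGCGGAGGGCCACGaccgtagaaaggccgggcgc

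HSP90B1 held 2 such matches, of which 1 is shown. The HSPA5 match ended 48 bases before the transcript start. XBP1, the transcription factor that binds such elements, is on the degradation and sensor list, whose 12 tested members all had a positive D with a median of 0.82 (1.34, 0.93 and 0.18 by replicate). In 8 of the 12 it was positive in all 3 replicates. None of the 12 passed limma in either fit with all arrays (6 at an unadjusted p under 0.05 without the block, all upward), and 9 passed upward in each fit without treated replicate 3 at 48 h. Leaving replicate 3 out of all 4 groups gave 1 upward call without the block and 7 with it. Of the 7 motifs searched, the antioxidant response element TGACNNNGC was in 4 of 18 NRF2 target promoters (22.2%), 17.2% of downward late responses, 11.4% of upward ones and 12.3% of all genes tested, as a description with no test.

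**Figure D4:**
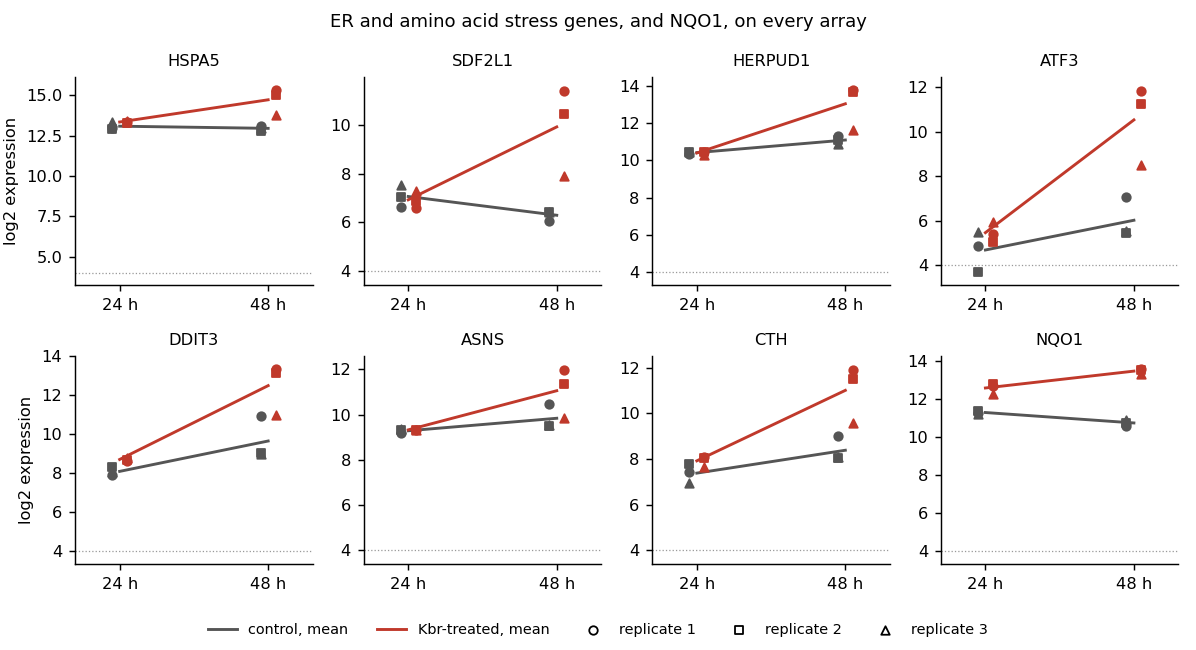
Log2 signal of 8 stress genes on all 12 arrays, with 24 h and 48 h along the horizontal axis and 1 point per array. Colour tells control from treated cells, and lines join their means. For HSPA5, SDF2L1, HERPUD1, ATF3, DDIT3, ASNS and CTH the treated replicate 3 at 48 h lies below the other 2 arrays of its group, whereas the 3 NQO1 arrays at 48 h lie within 13.29 to 13.58.

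Integrated stress response genes also differed between replicates. The 14 tested factors had a median D of 0.83 (0.69, 1.21 and 0.43 by replicate), replicate 3 was the smallest in 9 of them, and they had a median change of 1.13 in treated cells and 0.33 in controls. By limma 0 passed without the block (7 unadjusted, all upward) and SESN2 passed with it. Without treated replicate 3 at 48 h 6 passed upward without the block and 8 with it, beside 2.95% and 12.9% of all genes. Leaving replicate 3 out of all 4 groups gave 0 and 3 upward calls in the same fits. Values without treated replicate 3 at 48 h are descriptions, as that array was singled out partly by the size of D. ATF3, a stress-induced transcription factor, read 11.84, 11.25 and 8.49 in treated cells at 48 h against a mean of 6.02 ± 0.92 (SD, n = 3) in the 48 h controls, 5.46 ± 0.43 in treated cells at 24 h and 4.68 ± 0.90 in the 24 h controls. Its D was 3.73 ± 1.05 (limma adjusted p = 0.167, with the block 0.0674), and 4.75 without the array (limma adjusted p = 0.0138). DDIT3, the transcription factor CHOP, read 13.34, 13.12 and 10.99 in treated cells at 48 h with a change of 1.56 in the controls that did not pass (D 2.23 ± 1.27, limma adjusted p = 0.237, with the block 0.0978; without the array 2.98 and 0.0331).

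Amino acid supply genes had their lowest median D in replicate 3. The 8 tested amino acid transporters had a median D of 1.03 (0.85, 1.51 and 0.16 by replicate), the 11 amino acid and one-carbon synthesis genes 0.47 (0.59, 0.71 and 0.07), and the 17 cytosolic tRNA synthetases 0.39 (0.67, 0.45 and 0.13). None of these 36 genes passed limma without the block (3, 2 and 7 at an unadjusted p under 0.05, all upward). With the block, CTH, which makes cysteine from cystathionine, and HARS1, the histidyl-tRNA synthetase, passed upward (D 2.08 and 0.39, limma adjusted p 0.0459 and 0.046). Without treated replicate 3 at 48 h the upward calls without the block were 3, 4 and 5, and with it 6, 8 and 12. With replicate 3 left out of all 4 groups they were 0, 0 and 0 without the block and 2, 3 and 3 with it. Calls and p-values without treated replicate 3 at 48 h are descriptions, as above. ASNS, the asparagine synthetase, read 11.99, 11.33 and 9.84 in treated cells at 48 h, and its D of 1.18 ± 0.75 passed in neither fit (limma adjusted p = 0.378, with the block 0.195; without the array 1.79 and 0.0294). INHBE, an inhibin subunit, rose in both arms, by 4.39 in treated cells and 2.31 in controls, and GDF15, a stress-secreted peptide, by 2.25 and 0.84 (D 2.08 and 1.41, limma adjusted p with the block 0.0454 and 0.0362, without it 0.28 and 0.117).

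Matrix genes formed the downward counterpart and were even over replicates. The 14 tested basement membrane genes had a median D of -0.58 (-0.63, -0.64 and -0.50 by replicate), and 12 of the 14 were negative in all 3 replicates, beside 2820 of all 10665 genes. By limma 1 passed downward without the block, COL4A4, and 5 with it, beside 0.075% and 3.95% of all genes. None passed upward. The 5 were COL4A4, the heparan sulfate proteoglycan AGRN, the laminin chain LAMA5, the laminin-binding nidogen NID1 and the collagen chain COL4A2. AGRN, LAMA5 and COL4A2 were late responses with a D of -0.95 ± 0.09, -0.70 ± 0.23 and -0.61 ± 0.03 (SD, n = 3; limma adjusted p with the block 0.0134, 0.0433 and 0.015, without it 0.307, 0.145 and 0.322). NID1 had a D of -0.66 ± 0.01 (limma adjusted p with the block 0.0144, without it 0.165). Over the list the median change was 0.27 in the controls and -0.14 in treated cells. COL4A4 was a control-side change, and AGRN, LAMA5 and COL4A2 moved in the treated cells. Leaving out treated replicate 3 at 48 h gave 2 downward calls among the members without the block and 10 with it. Of all genes 1.54% and 10.5% passed downward in these fits.

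The 15 tested interstitial matrix genes had a median D of -0.54 (-0.46, -0.52 and -0.60 by replicate). EFEMP1 passed downward in both fits. With the block 4 passed downward, beside 3.95% of all genes. Besides EFEMP1 they were FBN1, the microfibril protein fibrillin-1, LOXL2, a collagen crosslinking oxidase, and SPARC, a collagen-binding glycoprotein. Their D was -0.55, -0.54 and -0.40 (limma adjusted p with the block 0.0464, 0.0362 and 0.0312, without it 0.28, 0.291 and 0.28), and all 4 were late responses with effects that were already negative at 24 h. The other FBN1 probe set gave a D of -0.18 and the other SPARC probe set one of -1.14. On the arrays without treated replicate 3 at 48 h, 2 interstitial matrix genes passed downward and 0 upward without the block. With it 7 passed downward and 2 upward, beside 10.5% and 12.9% of all genes. The fibroblast markers DCN, LUM and COL1A1 belong to the same kind of gene. The summed signal of the fibroblast list, given above, was lowest in treated cells at 48 h.

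Among immediate early and MAPK feedback genes, 0 of 17 passed limma without the block (6 unadjusted, all upward). With the block 6 passed upward, beside 3.41% of all genes, although the list's median D was 0.16. The 6 were DUSP5, the Kruppel-like factor KLF4, the survival factor IER3, the AP-1 subunits JUN and FOSL2, and the MAPK phosphatase DUSP1. KLF4, IER3 and JUN had a D of 1.24 ± 0.39, 1.20 ± 0.39 and 0.98 ± 0.24 (SD, n = 3; limma adjusted p with the block 0.0373, 0.0337 and 0.0459, without it 0.174, 0.113 and 0.161). FOSL2 had a D of 0.63, and its other 4 probe sets gave 1.06 to 1.28. HBEGF, a ligand of the EGF receptor, had a D of 1.58 ± 0.69 (limma adjusted p with the block 0.0431, without it 0.211), with a control change of -0.98 and a treated change of 0.60.

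The 18 tested p53 targets did not share a direction. With the block GDF15, GADD45A and TIGAR, a regulator of glycolysis, passed upward and TP53INP1 downward, beside 3.41% and 3.95% of all genes. By limma without it 0 passed (5 unadjusted upward and 4 downward). The median D of the list was -0.07. When treated replicate 3 at 48 h was left out, 2 passed upward and 1 downward without the block. With it 4 passed upward and 4 downward, beside 12.9% and 10.5% of all genes. TIGAR was a control faller, with a control change of -0.50 and a treated change of 0.05.

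Of 16 tested ion transport genes, 0 passed limma without the block (2 unadjusted, both downward). With the block 3 passed downward, beside 3.95% of all genes. They were SCNN1A, a subunit of the epithelial sodium channel, SLC4A4, the basolateral sodium bicarbonate cotransporter, and CLCN5, an endosomal chloride transporter (D -0.85, -0.81 and -0.64, limma adjusted p with the block 0.0451, 0.0142 and 0.021). The other SCNN1A probe set gave a D of -0.19. Of the other SLC4A4 probe sets, 3 gave -0.94, -0.86 and -0.82 and the dimmest -0.29, uneven over replicates. SLC4A4 was a control riser, by 0.99 in controls and 0.18 in treated cells. Of the other CLCN5 probe sets above the floor, 1 gave a D of -0.44 and 2 a D of 0.20. Of 13 inflammatory genes, CCL2, a monocyte chemokine, and IL1B passed downward with the block. By limma 0 passed without it (3 unadjusted upward, 3 downward). Without treated replicate 3 at 48 h the inflammatory calls went both ways, 3 upward and 1 downward without the block and 4 and 4 with it. Of all genes, 2.95% passed upward and 1.54% downward in the first fit, and 12.9% and 10.5% in the second. In the first fit the chemokines CCL20, CXCL2 and CXCL8, singled out after their values were seen, had a D of 3.03, 1.39 and 0.86. Their limma adjusted p was 0.00398, 0.0464 and 0.0435, as a description, because the array left out was singled out partly by the size of D. With all arrays their D was 2.24, 1.05 and 0.73 and passed in neither fit. CCL2 had a D of -2.06 ± 0.68 (limma adjusted p = 0.208, with the block 0.0391), with a control change of 1.25 and a treated change of -0.80. Of 11 tubular injury markers, VCAM1, an adhesion molecule, and CLU, the secreted chaperone clusterin, passed downward with the block (D -0.69 and -0.55, limma adjusted p 0.0386 and 0.0306). None passed without it (3 unadjusted, all downward). Without the array the downward calls of the block were 5 for ion transport and 3 for injury markers, with 0 upward in both lists. Of all genes 10.5% passed downward and 12.9% upward in that fit.

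The remaining lists named here had a small median D and few or no calls. The 26 tested respiratory chain genes had a median D of -0.07 and the 13 heat shock chaperones 0.09, and 0 members passed limma in either fit (0 and 2 unadjusted without the block). Of 27 proteasome subunits 25 had a positive D, and 22 were positive in all 3 replicates, beside 5535 and 3186 of all 10665 genes. The median D was 0.18, with 0.12, 0.23 and 0.23 in replicates 1 to 3. By limma 0 passed without the block (3 unadjusted, all upward) and 3 passed upward with it, beside 3.41% of all genes. Without treated replicate 3 at 48 h the blocked fit passed 2 downward respiratory chain genes, 2 upward and 1 downward heat shock chaperones and 6 upward proteasome subunits. That fit passed 12.9% of all genes upward and 10.5% downward.

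**Figure D5:**
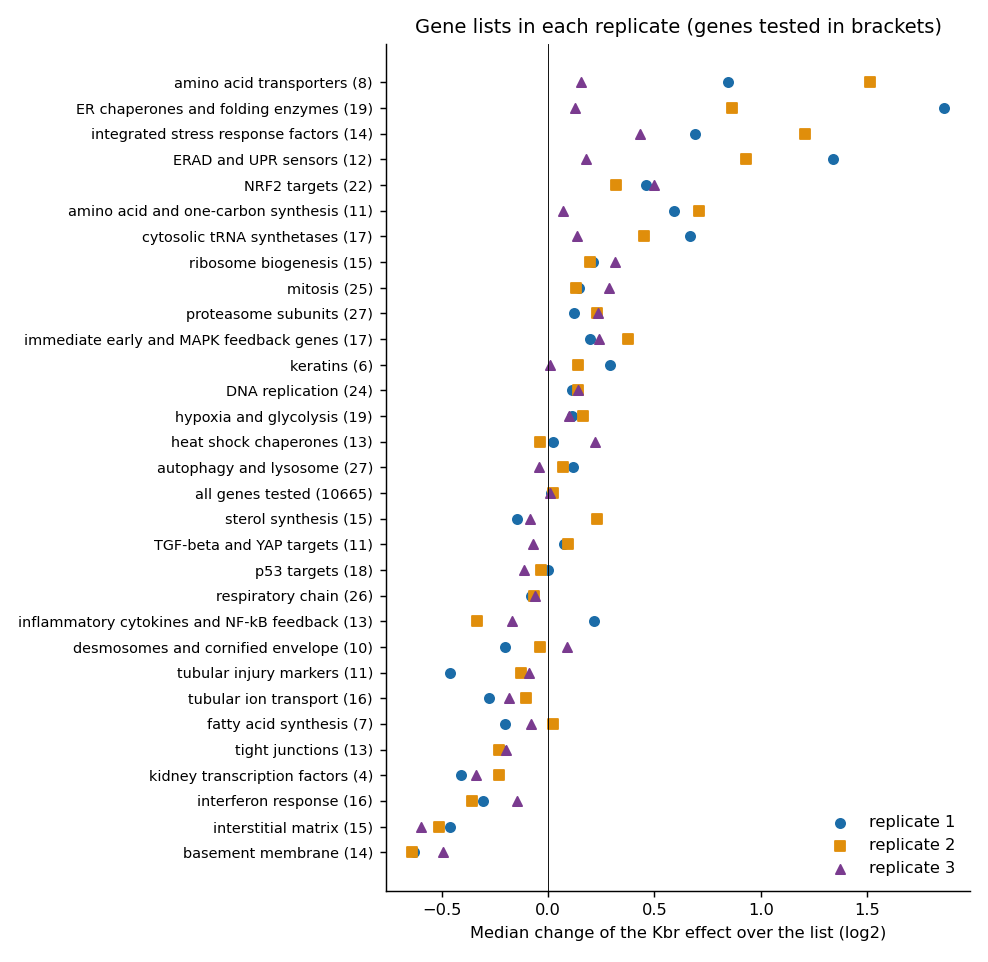
Median D in log2 units over the tested members of each gene list, and over all genes tested, with 1 point for each biological replicate number. Replicate 3 lies nearest to 0 for the endoplasmic reticulum and amino acid lists, the NRF2 targets lie at 0.32 to 0.50 and the basement membrane genes at -0.64 to -0.50 in all 3 replicates.

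Some effects already past the test at 24 h had a D limited to less than 1 log2 unit, and are called steady here. Of the 612 genes past the limma test at 24 h (5.74% of genes tested), 431 had a 95% limma interval of D within -1 and 1. The share of all genes tested with such an interval was not computed, so this count says nothing particular about genes affected at 24 h. The largest upward effects among them were those of ZSCAN31, a zinc finger gene, at 1.34 and 1.08 at the 2 times, of the long noncoding RNA LINC-PINT at 1.15 and 1.22, of the splicing factor SNRNP48 at 1.11 and 1.42, of KLHL21 at 1.09 and 1.00 and of the chaperone HSPH1 at 1.05 and 1.54. The largest downward ones were those of HOGA1, a mitochondrial aldolase of hydroxyproline breakdown, at -1.46 and -1.52, of the fructose transporter SLC2A5 at -1.42 and -1.45, of TLCD2 at -1.28 and -1.65, of the Notch coactivator MAML2 at -1.27 and -1.15 and of TMEM107 at -1.22 and -1.22. These intervals limit a change of effect to less than 1 log2 unit and do not show that it was 0. HSPH1 had a positive D, from 0.32 to 0.58, in every leave-out fit without the block. The other probe sets of TMEM107 gave a D of 0.63 and -0.73 and that of SLC2A5 one of -0.55.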

How the data were processed

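The deposited table holds log2 values of 12 Affymetrix arrays. The authors used GCRMA, per the submitters' processing notes, and its version and settings were not found in the labels. GCRMA corrects background from probe sequence, so low values and their differences depend on that model. Of 54675 probe sets, 41091 had 1 gene symbol in the platform annotation, 1801 had several, 11721 had none and 62 were controls. All values, including the 3 differences per gene, were computed from the deposited log2 values without further normalization.

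The 4 group means were fitted with limma 3.58.1 (R 4.3.3) over all 12 arrays, with two-sided tests, Benjamini-Hochberg adjustment over the 10665 genes tested and a threshold of 0.05. The fit had no block, and the replicate number as a block was the alternative. After removing group means, the 18 pairs of arrays with the same number correlated at 0.279 to 0.701 and the 36 other pairs of different groups at -0.454 to -0.0613, and 12 of 12 arrays had their best partner within their own number. This check and the numbers in the labels are the basis of the pairing. P-values measure the spread between these arrays, which limits their precision, and nothing in the labels says how separate the replicate cultures were. Standard deviations are over the 3 values of D or the 3 arrays of a group.

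Genes were named by rule: the 12 largest positive and negative D past the test with 1 sign in all replicates, the 6 largest of each class, up to 4 members of each list by p, the 5 largest steady effects each way, and 9 genes named whatever their values. After the counts of both fits were seen, the rule was applied to the blocked fit too. Members and lists were chosen with earlier results of these data known. Other filters, normalizations, probe set rules, class limits and each array left out were tried. The fits were tested on simulated data.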

Additional observations from a re-analysis of the deposited data

Results flagged for a closer look

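For 15 genes the effect of Kbr differed between the 2 times by the limma interaction test without a block, which is the test of D itself. The differences were 2.21 for SEPTIN7P13, 1.44 for NQO1, 0.99 for EXOG, 0.88 for SCARNA15, 0.85 for TBC1D31, 0.81 for SLF1 and 0.71 for CEP43. On the negative side they were -0.85 for DNPH1, -1.16 for SGK1, -1.32 for MUC1, -1.40 for ILDR2, -1.51 for PPP1R1A, -2.05 for COL4A4, -2.10 for COPZ2 and -2.58 for EFEMP1. In the 15 fits that each left out 1 array or 1 replicate number, EFEMP1 passed in 11, COL4A4 and MUC1 in 7, NQO1 in 4, and COPZ2, ILDR2 and SGK1 in 3. SEPTIN7P13 and EXOG passed in 2 and SCARNA15, TBC1D31, SLF1, CEP43, PPP1R1A and DNPH1 in 1, and the sign of D changed in none of the 15.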

How the results depend on the processing

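Without the replicate block, the main count was 15 calls with 5 late responses and 3 control-side changes. With no filter there were 32 calls and 16 late responses, with a floor of log2 6 there were 9 calls, and with each array's median subtracted 8, of which 2 were higher and 6 lower. The mean of a symbol's probe sets gave 3 calls, 3 late responses and 0 control-side changes, and an intensity trend with robust variance 8 late responses. A class limit of 1/2 gave 8 control-side changes and a limit of 1/4 gave 2. With the replicate block, where the numbers pair the arrays, there were 785 calls, 295 late responses and 188 control-side changes, and a test of the 3 paired differences alone gave 370. Within the blocked fit, no filter gave 492 calls and 154 late responses, trend with robust variance 1276, 475 and 323 control-side changes, and a class limit of 1/2 303 control-side changes.

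Over the fits that left out arrays, calls ran from 0 to 479, late responses from 0 to 350 and control-side changes from 0 to 21 without the block, and from 0 to 2499, 0 to 1194 and 0 to 448 with it. The share of called genes with a larger effect of the same sign at 48 h was 74.1% to 100% without the block and 79.2% to 96.2% with it. PSMA5 was the 1 named gene past a test of D whose sign reversed, to -0.0564 with the block under the mean of its probe sets. Among the steady effects, the sign of D varied over the leave-out fits for LINC-PINT, KLHL21, HOGA1, SLC2A5 and TMEM107. Signal near background limits genes with a group below log2 4.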
